A study of Rattus norvegicus with 4 samples.

Results

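The genes described here are 40 targets of the tumour suppressor p53 and DNA repair genes, measured in NR8383, an established rat alveolar macrophage line that originated from lung lavage. They were chosen by name. A gene counted as measured where an accession printed with an array probe matched its RefSeq symbol, and 36 of the 40 were measured, out of 16506 named genes. Sesn1, Atr, Prkdc and Msh6 had no matching probe, so their RNA was not analysed here. Sesn1, Atr and Msh6 do count among the promoter windows described below, and Sesn1 is among those with a complete half-site. The measured set held 16 repair genes and 20 p53 targets, a group taken broadly to include the p53 inhibitor Mdm4 and the family members Gadd45g and Ccng2.

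The series has 1 group of 4 biological replicates, 1 array each, of cells kept 4 h in culture medium containing 10% fetal bovine serum. For all 4 the sample records also give growth in 15% serum and a seeding time of 48 h. Cells had gone through 20 passages and partly adhered and partly floated in culture; they carried no added agent or genetic change according to the labels, and the labels' abbreviation ALI is not interpreted here. Because there was no second condition, no test between groups was possible, and the results are which genes were detected, their values on each array, and how far the arrays differed. The cells carried the markers of their label: all 10 macrophage markers looked for were detected, against 0 of 5 epithelial, 1 of 5 fibroblast, 1 of 3 neutrophil, 1 of 4 T cell and 2 of 4 endothelial markers. The endothelial ones were Pecam1, a gene that leukocytes also use, and Cdh5.

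As background, p53 is a transcription factor that is held low by the ubiquitin ligase Mdm2 and released when the kinases Atm and Atr sense broken or stalled DNA. It then switches on genes that stop the cell cycle, repair DNA, restrain growth or kill the cell, and Mdm2 itself, which closes the loop. Repair genes act in parallel routes for double-strand breaks, oxidised or lost bases, bulky lesions and mismatches. Macrophages make reactive oxygen species, which can oxidise DNA bases, the lesions that base excision repair removes.

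p53 binds DNA at a pair of 10-base half-sites, and 33 of the 40 genes had a promoter window in the RefSeq table (GRCr8, 250 bases before to 50 after the annotated start). The p53 consensus, a pair of half-sites with the central C and G of each kept, at most 1 mismatch in all and a spacer of up to 13 bases, was searched for. The pattern reads the same on both strands. It was found in 3 of the 33 windows (9.09%), against 189 of 33469 RefSeq windows (0.565%). A complete half-site was found in 6 of the 33 (18.2%), against 7.98% of all windows. The windows are those of repair genes and p53 targets together, and all 3 hits are in p53 targets, which are in the set because p53 is known to act on them, so the shares describe sequence and say nothing of binding in these cells. The 3 windows are shown because their genes differed in how they varied between arrays, as described further on, with the half-sites in capitals and each sequence 5′ to 3′ along the gene.
Ccng1, chr10:25684827-25685126, minus strand: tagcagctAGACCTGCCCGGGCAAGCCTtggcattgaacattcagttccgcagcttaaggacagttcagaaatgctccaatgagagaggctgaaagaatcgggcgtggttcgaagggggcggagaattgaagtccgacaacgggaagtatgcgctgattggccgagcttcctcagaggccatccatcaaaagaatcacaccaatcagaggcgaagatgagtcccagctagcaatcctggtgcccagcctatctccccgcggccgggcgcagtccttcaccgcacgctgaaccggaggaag
Gadd45a, chr4:97486750-97487049, minus strand: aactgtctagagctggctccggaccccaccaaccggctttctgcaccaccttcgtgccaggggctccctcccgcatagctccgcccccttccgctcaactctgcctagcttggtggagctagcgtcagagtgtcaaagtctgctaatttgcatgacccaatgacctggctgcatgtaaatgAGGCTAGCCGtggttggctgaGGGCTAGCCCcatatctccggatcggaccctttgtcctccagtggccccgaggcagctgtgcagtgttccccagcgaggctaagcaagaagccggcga
Cdkn1a, chr20:7150682-7150981, plus strand: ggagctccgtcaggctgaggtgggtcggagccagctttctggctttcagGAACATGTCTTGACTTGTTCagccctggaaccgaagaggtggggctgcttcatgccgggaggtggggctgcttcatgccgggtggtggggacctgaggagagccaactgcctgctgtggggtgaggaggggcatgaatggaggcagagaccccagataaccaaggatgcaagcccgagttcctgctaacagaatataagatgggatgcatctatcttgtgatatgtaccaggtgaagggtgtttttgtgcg
In Ccng1 and Cdkn1a the half-sites adjoin with a spacer of 0 bases, and begin 242 and 201 bases before the annotated start. In Gadd45a the site begins 69 bases before the start and has a spacer of 11 bases.

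Most of the set was expressed in this line. Of the 36 measured genes, 29 (80.6%) were detected, meaning that the scanner software's stricter background flag was passed by a probe on every array. The same call was made for 53.1% of all named genes (8772 of 16506). On at least 3 arrays it was made for 30 members, against 57.3% of all named genes, and the looser positive-and-significant flag was passed by 33 members, against 66.9% of all. Of the 7 members not detected, 4 passed the stricter flag on no array, as did 34.4% of all named genes. Detection held for 13 of 16 repair genes (81.2%) and for 16 of 20 p53 targets (80.0%). A level is the log2 of a probe's signal divided by the 75th percentile signal of its array, so that 0 marks a signal as bright as that percentile. Levels of different genes depend on their probes and are not set against each other. In RNA of whole cultures, fewer cells that use a gene and less RNA per cell cannot be told apart.

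All 3 inhibitors of p53 in the set were detected, where 53.1% of all named genes were. Mdm2, the ligase that marks p53 for destruction, read 1.19 on replicate 1 and 1.81, 1.68 and 1.80 on replicates 2, 3 and 4. Replicate 1 was low and the other arrays lay close together, with an SD of 0.07 among them against 0.29 over all 4. Its relative Mdm4, which blocks p53 without being a strong ligase, averaged 1.81 ± 0.11 (SD, n = 4). Ppm1d, the phosphatase that switches off the damage kinases and p53, averaged 0.26 ± 0.18 (SD, n = 4).

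Of the 5 genes of cell cycle arrest, 4 were detected. Cdkn1a encodes p21, the inhibitor of cyclin-dependent kinases that carries out much of the p53 arrest. Its first probe, printed at 10 spots, had processed signals of 3739, 5040, 5535 and 6906 on replicates 1 to 4, which after scaling were levels of 5.48, 5.48, 5.45 and 5.37. The 4 arrays lay close together, with an SD between them of 0.05. The single spots of the probe had an SD of 0.08 to 0.17 within an array, a technical spread that is not set against the one between cultures. The second probe had a level of 0.12 ± 0.10 (SD, n = 4). Plk3, a stress kinase, averaged 1.93 ± 0.20 (SD, n = 4).

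The cyclin G genes varied in opposite directions. Ccng1, which brings a phosphatase to Mdm2, read 3.22 on replicate 1 and 3.99, 4.43 and 4.46 on replicates 2, 3 and 4. Ccng2, a growth-inhibiting relative that FoxO factors also control, read -0.51 on replicate 1 and -1.65, -1.43 and -1.65 on replicates 2, 3 and 4. Neither gene's replicate 1 fell within the range of the other arrays. Replicate 1 lay 2.10-fold below the geometric mean of the others for Ccng1 and 2.10-fold above it for Ccng2. Btg2, an antiproliferative gene that p53 induces, was not detected, with signals of 2.71, 2.39, 2.68 and 3.08 on replicates 1 to 4. Those lay below the 95th percentile of the negative control spots of the same arrays, which was 3.26, 3.38, 3.2 and 3.68.

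The Gadd45 genes encode small stress sensors that bind stress kinases and the cell cycle machinery, and 2 of the 3 were detected. Gadd45a, the p53 target of the family, read 1.05 on replicate 1 and 2.44, 1.98 and 2.26 on replicates 2, 3 and 4. Replicate 1 was 2.25-fold below the mean of the others and outside their range, the largest deviation of any detected member on replicate 1. Gadd45b, a gene induced by NF-kB, averaged -0.33 ± 0.19 (SD, n = 4), also with its lowest value on replicate 1 (-0.58). Gadd45g was well above background on 2 arrays, with signals of 9.86, 8.90, 15.6 and 16.3 on replicates 1 to 4.

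Both measured genes of the growth and redox branch were detected. Sesn2, a sestrin that restrains the growth kinase complex mTORC1 and is also a target of the amino acid response, read 0.16 on replicate 1 and 1.15, 0.55 and 0.86 on replicates 2, 3 and 4. Tp53inp1, a cofactor of p53 with a role in autophagy, read -1.95 on replicate 1 and -1.45, -1.23 and -1.22 on replicates 2, 3 and 4. Both had their lowest value on replicate 1.

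Genes of apoptosis and RNA stability were detected in part. Aen, a nuclease that acts in apoptosis, averaged 4.35 ± 0.21 (SD, n = 4), and Phlda3, an inhibitor of the survival kinase Akt, -0.41 ± 0.37 (SD, n = 4). Phlda3 was highest on replicate 1 (0.07) and lowest on replicate 4 (-0.81). Zmat3, an RNA-binding protein, was well above background on no array, with signals from 2.37 to 3.71. Its spot lies within the margin of a dim patch on the array surface that is described below.

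Of the p53 targets that act in repair themselves, 3 of 4 were detected. Ddb2, which recognises ultraviolet lesions, read 2.60 on replicate 1 and 2.06, 2.18 and 2.19 on replicates 2, 3 and 4. Xpc, the damage sensor of nucleotide excision repair, read -0.71 on replicate 4 and -1.21, -1.14 and -1.15 on replicates 1, 2 and 3. Polk, a polymerase that copies past lesions, averaged 1.49 ± 0.23 (SD, n = 4). Each of these genes therefore had its extreme value on a different array or in a different direction: Ddb2 was highest on replicate 1, Xpc highest on replicate 4 and Polk lowest on replicate 1 (1.16). Rrm2b, the ribonucleotide reductase subunit that feeds repair in resting cells, was not detected, with signals of 7.91, 4.84, 12.9 and 6.39 on replicates 1 to 4.

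**Figure D1:**
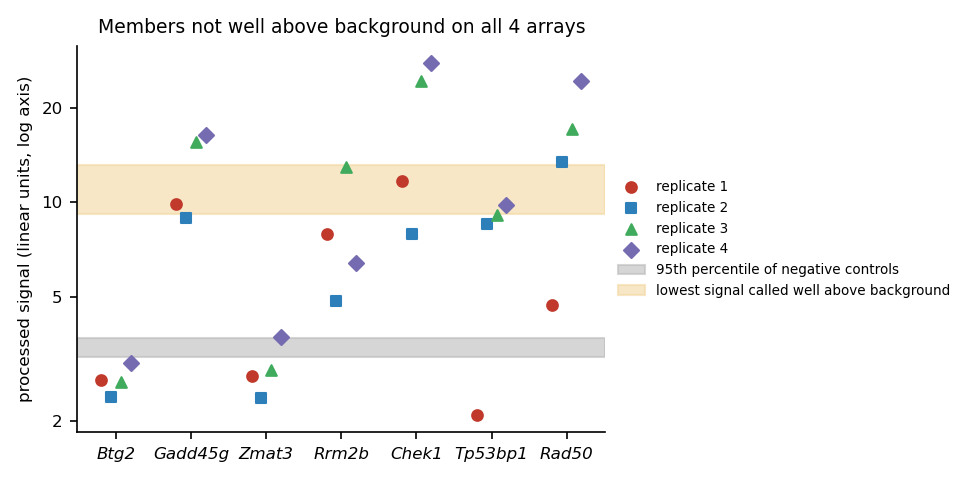
Processed signal (linear units on a log axis) of the 7 measured members that were not well above background on all 4 arrays, 1 point per array. Btg2 and Zmat3 lie near the grey band, which spans the 95th percentile of negative controls on the 4 arrays (up to 3.68), whereas Gadd45g, Chek1 and Rad50 pass the yellow band of lowest signals called well above background (9.17 to 13.2) on the arrays where they were called.

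Among the sensors and mediators of damage, 2 of 4 measured genes were detected. Atm, the kinase activated by double-strand breaks, read -1.17 on replicate 1 and -1.61, -1.67 and -1.90 on replicates 2, 3 and 4. Chek2, the kinase that Atm activates, read -2.06 on replicate 2, against -0.86, -1.05 and -1.22 on replicates 1, 3 and 4. Chek2 was thus the member that stood apart on replicate 2. Chek1, the kinase that Atr activates during replication stress, was well above background on 2 arrays, with signals of 11.7, 7.94, 24.4 and 27.8 on replicates 1 to 4. Tp53bp1, the chromatin protein that marks breaks for end joining, was well above background on no array, at 2.10, 8.52, 9.12 and 9.81 on replicates 1 to 4.

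Of the 5 genes of homologous recombination and crosslink repair, 4 were detected. Brca1 read 0.48 on replicate 1 and -0.56, -0.16 and 0.23 on replicates 2, 3 and 4, with its lowest value on replicate 2. Brca2, a mediator of homologous recombination, read 1.14, 1.06, 0.94 and 0.86 on replicates 1 to 4, with an SD of 0.13 against 0.46 for Brca1. Fancd2, the central protein of the Fanconi pathway, averaged -1.71 ± 0.26 (SD, n = 4). Nbn, a subunit of the complex that holds broken ends, read 0.87 on replicate 1 and 1.41, 1.73 and 1.43 on replicates 2, 3 and 4, and so ran opposite to Brca1 on replicate 1. Its partner Rad50 was well above background on 3 arrays, with signals of 4.69 on replicate 1 and 13.4, 17.2 and 24.4 on replicates 2, 3 and 4. Without replicate 1, Rad50 counted as detected and the members detected numbered 30.

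The Ku heterodimer of end joining, encoded by Xrcc5 and Xrcc6, was detected by 2 probes of each gene. The Xrcc5 probes varied alike, with SDs of 0.18 and 0.21 (n = 4) and replicate 1 at 0.36 and 0.37 above the mean of the other arrays. The second Xrcc6 probe read 4.69, 4.19, 4.45 and 4.42 on replicates 1 to 4. The first read 1.36, 0.79, -0.31 and -1.57, and its spot lies in the dim patch. With those spots left out, Xrcc6 lay 0.36 above the mean of the other arrays on replicate 1, in place of 1.03 with both probes.

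Base excision and single-strand break repair was detected in full, 4 of 4 genes, against 53.1% of all named genes. All 4 were highest on replicate 1, as were 42.3% of all detected genes. Parp1, the sensor of nicked DNA, read 4.85 on replicate 1 and 3.95, 4.08 and 3.87 on replicates 2, 3 and 4. Its probe was printed at 10 spots, of which 1 lies in the dim patch, and the SD among spots within an array was 0.04 to 0.10. Parp1 was 1.85-fold higher on replicate 1 than the geometric mean of the others, among which the SD was 0.10.

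Xrcc1, the scaffold that gathers the ligase and polymerase, read 3.61 on replicate 1 and 3.01, 3.12 and 2.77 on replicates 2, 3 and 4. Ogg1, the glycosylase that removes oxidised guanine, read 0.72 on replicate 1 and 0.12, 0.15 and 0.20 on replicates 2, 3 and 4. Both lay above the range of the other arrays on replicate 1. Apex1, the nuclease that cuts at lost bases, differed less, with 6.14 on replicate 1 and 6.10, 5.98 and 5.68 on replicates 2, 3 and 4. Ercc1, part of the nuclease that makes the 5′ incision in excision repair, averaged 3.91 ± 0.21 (SD, n = 4) and was highest on replicate 2 (4.18).

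**Figure D2:**
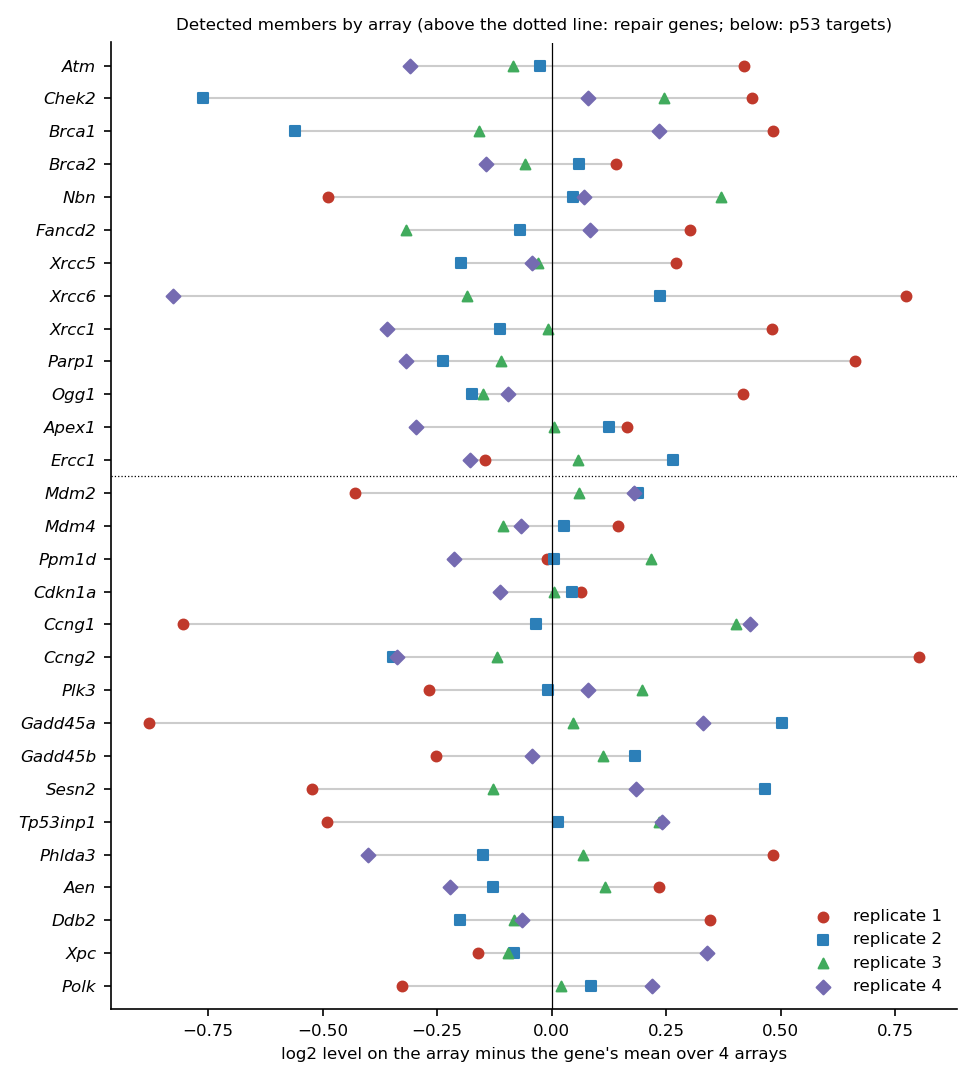
Level of each of the 29 detected members on each array minus the gene's own mean over the 4 arrays (x axis, log2 units), 1 marker per array and a grey line over their range. Replicate 1 is the highest array for 11 of the 13 repair genes and the lowest for 9 of the 16 p53 targets.

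The clearest pattern in the set was a split between its parts on replicate 1. A deviation here is the level on 1 array minus the mean of the other 3. On replicate 1 the median deviation was 0.56 for the 13 repair genes and -0.27 for the 16 p53 targets, a difference of 0.83, while all detected genes had a median of 0.07. Replicate 1 was the highest array for 11 of 13 repair genes, against 42.3% of all detected genes, and the lowest for 9 of 16 p53 targets, against 32.8%. Of the repair genes 11 of 13 (84.6%) lay above the mean of the other arrays on replicate 1, as did 55.8% of all detected genes. Of the p53 targets 10 of 16 (62.5%) lay below it, as did 44.2% of all detected genes. The repair exceptions were Nbn and Ercc1, and the p53 targets above the mean were Mdm4, Cdkn1a, Ccng2, Phlda3, Aen and Ddb2. These counts hold only genes called on every array, including replicate 1, the dimmest. Of the undetected repair genes, Rad50 (-1.25) and Tp53bp1 (-1.44) lay below the mean there and Chek1 (0.09) above it. The undetected p53 targets Btg2 (0.68), Gadd45g (0.26), Zmat3 (0.60) and Rrm2b (0.78) lay above it. All but Chek1 thus ran against the split, at signals near background on some array. Atm, Brca1 and Brca2 each had another probe below the mean there, as given further on.

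On the other arrays the parts lay closer together. The repair genes minus the p53 targets came to -0.10 on replicate 2, -0.15 on replicate 3 and -0.21 on replicate 4. These values share the arrays that they are set against, so a high or low replicate 1 moves the other 3 the opposite way. The difference does not depend on a scaling by a constant per array, since such a constant moves both parts alike. It was between 0.34 (no filter on dim probes) and 0.85 (without replicate 3) in the alternatives tried.

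**Figure D3:**
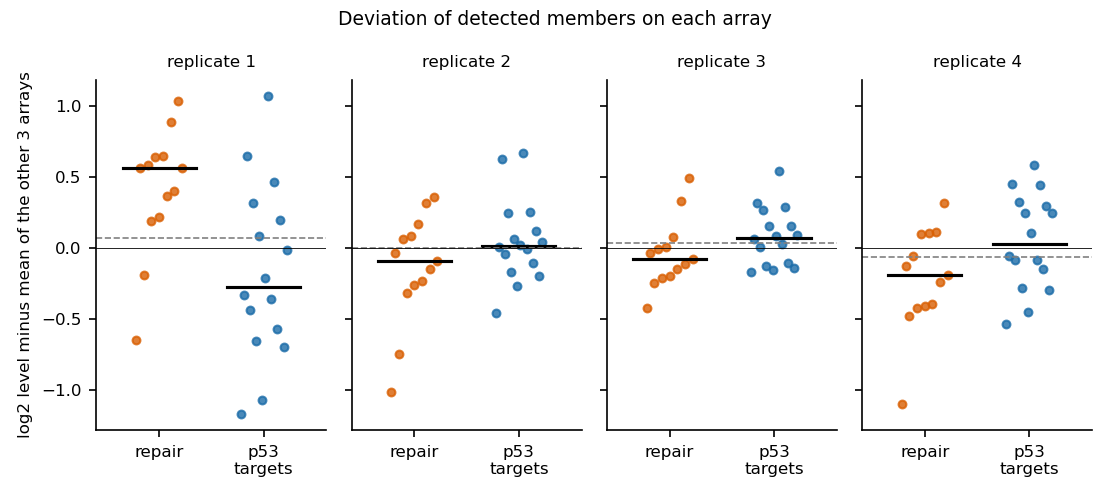
Deviation of each detected member (y axis, level on the array minus the mean of the other 3, log2 units) on replicates 1 to 4, for 13 repair genes and 16 p53 targets, with black bars at their medians and a dashed grey line at the median of all detected genes. On replicate 1 the medians are 0.56 and -0.27, and on replicates 2 to 4 they differ by -0.10, -0.15 and -0.21 (repair genes minus p53 targets).

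Single members stood apart on replicate 1 about as often as other genes did. A gene was counted as apart where 1 array lay more than 0.5 above the highest or below the lowest of the other 3. Apart and higher on replicate 1 were 4 of 29 members (13.8%; Ccng2, Xrcc6, Parp1 and Ogg1), against 10.7% of all detected genes. Apart and lower were 4 of 29 (13.8%; Ccng1, Gadd45a, Tp53inp1 and Nbn), against 8.5% of all. Both shares are near the background, and nothing is read from these counts about the members. Over all arrays 9 of 29 (31.0%) stood apart on some array, against 24.2% of all detected genes, the ninth being Chek2, lower on replicate 2, where 1.46% of all detected genes were. Xrcc6 was also lower on replicate 4, as were 2.84% of all detected genes. Both calls for Xrcc6 rest on its probe in the dim patch, since the other probe stood apart on no array. Without the spots of the patch, Xrcc6 left the 4 genes apart and higher on replicate 1 and Xrcc1 entered them, its distance above the other arrays being 0.51 in place of 0.49. No member was apart and higher on replicates 2, 3 or 4 (0.741%, 0.422% and 0.616% of all detected genes), or lower on replicate 3 (0.194%). In 2 members, Ogg1 and Xpc, 1 array passed Dixon's 95% value, against 8.41% of all detected genes.

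The spread between arrays was likewise close to that of other genes. The median SD of the detected members was 0.28, and that of all detected genes 0.24. Single values ran from 0.08 for Cdkn1a to 0.68 for Xrcc6, whose value is set by the probe in the dim patch. Without the patch spots Xrcc6 had an SD of 0.21 and the highest was that of Gadd45a, 0.61. Without replicate 1 the medians over the same genes were 0.17 and 0.15. Replicate 1 was the farthest array from the gene's mean for 19 of 29 members (65.5%) and for 54.7% of all detected genes.

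Several measures moved with replicate 1 alongside these genes. All 8 proliferation markers measured lay above the mean of the other arrays there, where 55.8% of all detected genes did. Their median deviation was 0.50, against 0.07 for all detected genes. Among them, Mki67 read 2.78 on replicate 1 and 2.43, 2.38 and 2.68 on replicates 2 to 4. Its probes deviated by 0.03, 0.25, 0.29 and 0.58 on replicate 1, but the first and second were highest on replicate 4. The clamp Pcna of replication forks read 4.87 on replicate 1, against 4.26, 4.33 and 4.44. The replicative helicase subunit Mcm2 read 4.72, against 3.74, 3.83 and 3.63. Of the macrophage markers 7 of 10 lay above the mean of the other arrays on replicate 1, with a median deviation of 0.13. These stand beside the same 55.8% and 0.07 of all detected genes. Single markers moved strongly both ways: the mannose receptor Mrc1 deviated by 1.36, the Fc receptor Fcgr1a by 1.19 and the nuclear receptor Pparg by 0.94, and the lipopolysaccharide co-receptor Cd14 by -0.84. These 3 higher markers stood apart, 3 of 10 where 10.7% of all detected genes did. Cd14 stood apart and lower, 1 of 10 where 8.5% of all detected genes did. Of the detected markers of other cells, Pecam1 deviated by 1.34, Camp by 0.60, Lck by -0.52, Dcn by -0.74 and Cdh5 by -0.01. The only Cdh5 probe lies in the dim patch or its margin. Replicate 1 was also the dimmest array, with a 75th percentile signal of 83.4 against 112, 126 and 167 on replicates 2, 3 and 4, and 50.9% of its rat spots well above background against 53.9%, 56.5% and 58.9%. The part of these markers and of brightness in the split was not tested.

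**Figure D4:**
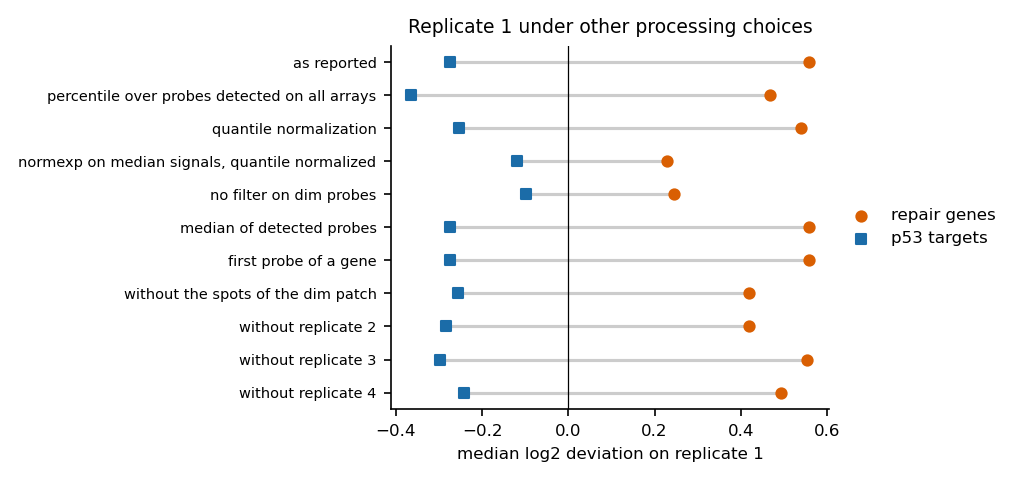
Median log2 deviation on replicate 1 (x axis) of the repair genes (circles) and the p53 targets (squares) as reported and under 10 other processing choices. The repair genes lie above 0 and the p53 targets below 0 under every choice shown, and the distance is smallest, 0.34 and 0.35, with no filter on dim probes and under normexp background correction.

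More than 1 probe was present for 7 members. For 4 of them (Mdm4, Atm, Brca1 and Brca2) the probes disagreed on detection, which was so for 25.5% of all named genes with more than 1 probe. In each of these 4 genes a single probe was well above background on all arrays and set the gene's level. The other Brca1 probe was called on 1 array and the other Brca2 probe on 3. The other 2 Mdm4 probes were called on 3 arrays each and the other Atm probe on 2. The level of each of these genes thus rests on 1 probe. On replicate 1 the other probes of these genes all lay below the mean of the other arrays. They deviated by -0.54 and -0.20 for Mdm4, -0.06 for Atm, -0.16 for Brca1 and -1.33 for Brca2. The probes that set the levels lay above it, by 0.19, 0.56, 0.65 and 0.19 in the same order of genes.

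**Figure D5:**
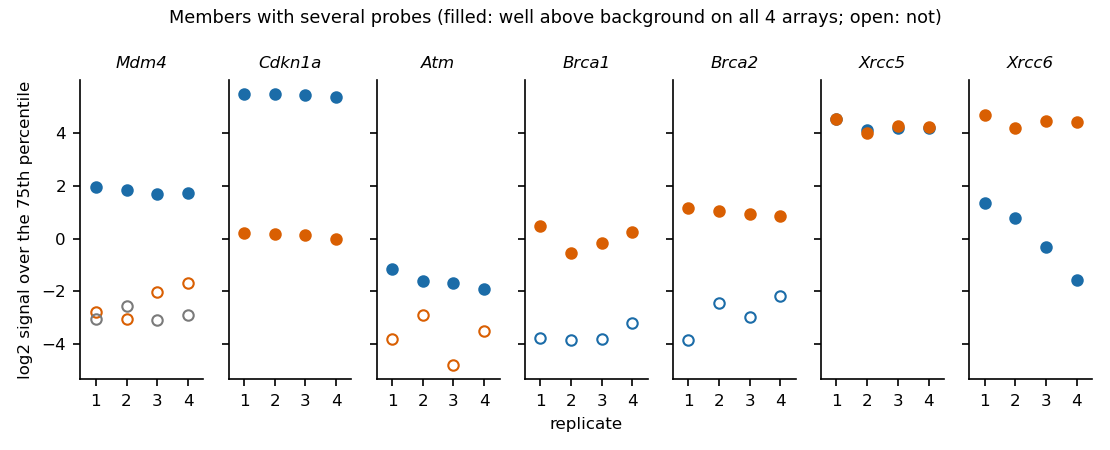
Level (y axis, log2 signal over the array's 75th percentile) of every probe of the 7 members with several probes, by replicate (x axis), filled where the probe was well above background on all 4 arrays and open where not. The Xrcc5 probes run alike, the first Xrcc6 probe drops to -1.57 on replicate 4, and Mdm4, Atm, Brca1 and Brca2 each have 1 filled probe. Probes differ in binding, so the distance between them is not a difference in RNA.

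The dim patch spans rows 166 to 216 and columns 73 to 88 of the array and was drawn around the 77 probes that were more than 2 log2 units lower on replicate 4 than on the others. With a margin of 5 rows and columns it held 3 spots of members, those of Zmat3 and Xrcc6 and 1 of the 10 of Parp1.

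In the rest of the pathway most of the measured genes were also detected, against 53.1% of all named genes. Of 12 measured genes of p53 and its regulators 10 were detected. The p53 relative Tp63 was detected by 1 of 3 probes, at 3.77 ± 0.15 (SD, n = 4), with its other probes well above background on no array, and the p53 deubiquitinase Usp7 lay at 2.48 ± 0.08. Tp73 and Cdkn2a, the locus of an Mdm2 inhibitor, were not detected. Of 19 other p53 targets 17 were detected, among them the killer genes Bax (4.89 ± 0.26) and Bbc3 (2.80 ± 0.56) and the death receptor Fas (-1.62 ± 0.37), but not Pmaip1 or Perp. On replicate 1 their median deviation was -0.12, with 8 above and 9 below the mean of the other arrays. Of all detected genes 55.8% lay above it.

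In other repair routes most of the measured genes were detected, against 53.1% of all named genes, but not every listed gene was measured. All 10 measured genes of damage signalling, of 13 listed, were detected, with Rad17 at -0.80 ± 0.31, Rad1 at -0.01 ± 0.28 and Hus1 at 1.11 ± 0.20 (SD, n = 4), parts of the clamp and its loader that activate Atr. The only probe of Rad17 lies in the dim patch or its margin. The first Hus1 probe was called on 1 array, so the level of Hus1 rests on its second probe. Double-strand break repair had 14 of 15 measured (18 listed), with Mre11 (-1.02 ± 0.13), the nuclease partner of Rad50 and Nbn, and Rad51c (1.95 ± 0.49), which acts in homologous recombination, and without the ligase Lig4. Base excision repair had 13 of 15 measured (16 listed), with the glycosylases Ung (-0.82 ± 0.15), Mutyh (0.44 ± 0.38) and Neil1 (-2.57 ± 0.27) and without Neil2 and Neil3. All 8 measured genes of nucleotide excision repair were detected, of 12 listed, with Xpa at -0.90 ± 0.15, Ddb1 at 3.36 ± 0.22 and the helicase Ercc2 at 1.37 ± 0.18.

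All 6 listed mismatch repair genes were measured and detected, with Msh3, which recognises loops left by replication, at -0.56 ± 0.14 (SD, n = 4). Of the Fanconi list 6 of 13 genes were measured and 5 detected, with Fancc (-0.74 ± 0.30), Fance (-1.51 ± 1.43) and Fancl (-0.50 ± 0.09) and Fancb not detected, and the only probe of Fance lies in the dim patch. Translesion synthesis had 3 of 4 measured (5 listed), with Rev3l (-1.33 ± 0.18), Mad2l2 (1.70 ± 0.41) and Rad18 (1.01 ± 0.09) and without Poli. On replicate 1 the median deviation of these lists was 0.13 for damage signalling, 0.25 for double-strand break repair, 0.39 for base excision, 0.16 for nucleotide excision, 0.21 for mismatch, 0.51 for Fanconi and -0.04 for translesion genes. The Fanconi median rests on Fance in the dim patch and was 0.20 over 4 genes without the patch spots. The median of all detected genes there was 0.07, and 6 of these 7 lists lay above it. Above and below the mean of the other arrays lay 8 and 2 damage signalling genes (7 and 2 without the patch spots) and 10 and 4 of double-strand break repair. For base excision it was 11 and 2, and for nucleotide excision 6 and 2. Mismatch genes were 3 and 3, Fanconi genes without the patch spots 2 and 2, and translesion genes 1 and 2. Of all detected genes, 55.8% lay above.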

How the data were processed

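Total RNA of 4 replicate cultures was measured on 4 one-colour arrays (Cy3) of a single slide and scan, so neither could be tested as a batch. Feature Extraction 11.0.1.1 read the scans, per the submitters' processing notes. What was deposited is each spot's intensity on a linear scale with its flags (processed signal, with the median signals of spot and local background), 1 file per array, per the file headers; any correction inside the processed signal is not given in the sources used here. Of 62976 spots, 4259 controls were left out, as were 440 to 1206 outlier spots per array, and no spot was saturated. No array pair held identical values.

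Log2 processed signals were averaged over the spots of a probe and scaled by the array's 75th percentile over probes. RefSeq symbols of GRCr8, matched by accession, named 21109 of 45598 probes; the array's own design is on build rn4. A gene's level is the mean of its probes that were well above background, in most of their spots, on all 4 arrays. The members and lists were chosen with earlier results of these data known. Every member is named, and of other lists the first 3 detected genes and those not detected, except that some list genes are not reported here. No p-value was computed, since there is 1 group, and the number of arrays limits the precision. Alternatives were other detection calls, scalings, normexp (offset 50, on median signals in place of the planned mean signals), probe rules, the patch left out and each replicate left out. Levels were computed with numpy 2.4.6 and pandas 2.3.3, normexp with R 4.3.3 and limma 3.58.1, and the statistics were tested on simulated shifts.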

Additional observations from a re-analysis of the deposited data

Results flagged for a closer look

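In 2 of the 29 detected members (6.90%) the highest array was separated from the next by most of the range of the 4 arrays, past Dixon's 95% value. Chance gives about 1 in 20, and 8.41% of all detected genes passed. Ogg1 on replicate 1 had a ratio of 0.868, with 0.72 against 0.12 to 0.20 on the others, and over 8 settings with all arrays its deviation there was between 0.12 and 0.58. Xpc on replicate 4 had a ratio of 0.842, with -0.71 against -1.21 to -1.14, and its deviation there was between 0.25 and 0.56 over the same settings.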

How the results depend on the processing

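Of 156 alternative values of the counts and medians, 144 stayed within the spread or within 1.5 times the reported count. A reversal could be called for medians beyond their spread, those of the 2 parts on replicate 1 and their difference. It could also be called for deviations of single members, but only on an array where the member stood apart. None of these changed sign. Smaller deviations of single members did, such as Brca2 on replicate 1, which was between -0.57 and 0.24 over the settings with all arrays. The number of members detected stayed between 27 (first probe of a gene) and 33 (positive-and-significant flag, where 66.9% of all named genes passed), against 29 reported. Under normexp on median signals the median deviation of repair genes on replicate 1 was 0.23, the difference between repair genes and p53 targets 0.35, and 4 members stood apart on some array, 2 higher and 2 lower on replicate 1. With no filter on dim probes, which adds undetected members, these were 0.25, 0.34 and 15 members. Members apart and higher on replicate 1 numbered 2 with the percentile over detected probes and 2 under quantile normalization, against 4. With single replicates left out, the members apart on some array numbered 2 (without replicate 1) to 14 (without replicate 3, where the range has fewer arrays). For these settings the share of all detected genes apart was not computed, so nothing is read from the counts about the members. On replicate 1 under normexp, Tp53inp1 deviated by -0.03, Nbn by -0.28 and Ogg1 by 0.12, whereas Gadd45a (-1.03), Ccng1 (-0.83), Mdm2 (-0.61) and Parp1 (0.60) moved by less than 1 SD; the cause was not tested. Rad50, Chek1 and Gadd45g were limited by signal near background. The comparison of the 2 parts, and the values of Xrcc6, Xrcc1 and the Fanconi list without the patch, were added after seeing the data. No paired analysis was possible because the series has a single group.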

Other observations

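Among genes of the pathway lists that are not members, and chosen after their values were seen, Timeless, which stabilises replication forks, was also highest on replicate 1, at 1.90 there and 0.65, 0.63 and 0.68 on replicates 2 to 4. Of p53 targets, the killer gene Bbc3 was also higher on replicate 1 (3.63, against 2.52, 2.62 and 2.43), opposite to Ccng1 and Gadd45a, while the survival gene Bcl2l1 was lower there (-2.20, against -1.07, -1.23 and -1.45). The Bcl2l1 value rests on 1 of its 4 probes, which deviated by -0.95. The others were not called on every array and deviated by -0.01, -0.49 and -0.39, so 1 of them showed no fall.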
